A study of Homo sapiens with 16 samples.

Results

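The genes described here are 34 that make cholesterol, sense it, move it or store it. They were chosen by name from knowledge of the pathway, with earlier results of these data known. Of the 34, 31 had a probe set of their own on the array, and 29 were bright enough to be tested, among 18417 genes so measured and 12639 tested in all. FDFT1, the squalene synthase, and NR1H2, which encodes the receptor LXR beta, were not matched to a probe set. HSD17B7, a sterol reductase, lay only on a probe set shared with its copy HSD17B7P2, so no value is given for it. ABCA1 and ABCG1, the pumps that export cholesterol, were measured but lay under the brightness filter on all 16 arrays.

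The study measured RNA of 4 human cell lines on Affymetrix gene arrays, each line as a hypoxia-resistant subline (HR) and as its parental line. The HR groups were RPMI8226-HR, KMS-11-HR, U266-HR and IM-9-HR, each grown for 24 h at 1% oxygen. The parental groups, named RPMI8226, IM-9, KMS-11 and U266, were each grown for 24 h at 20% oxygen. All 8 groups had 2 arrays. RPMI8226, KMS-11 and U266 are lines of multiple myeloma, the malignancy of plasma cells. IM-9 is also labelled a myeloma line, although it is widely described as a B lymphoblastoid line transformed by Epstein-Barr virus. HR cells were measured only at low oxygen and parental cells only at high oxygen, so that the acquired resistance and the oxygen supply cannot be told apart. The labels do not say whether the cultures behind a pair of arrays were separate, whether each HR subline was selected more than once, or in which batch an array was run. The p-values therefore measure the spread between these arrays, which may be technical. An RNA level here is an average over a culture, in which fewer cells of a kind and less RNA per cell cannot be told apart.

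Values are log2 intensities, on which a difference of 1 is a doubling. The medians of the 16 arrays lay between 6.22 and 6.34, and a gene was tested if it exceeded the median of the whole table, 6.27, on at least 2 arrays. Array number and signal over background set the precision, and no count depth exists for such data. Of 10 plasma cell markers, 8 or 9 lay above the filter level in every group. Of 7 measured B cell markers, 6 lay above that level in both IM-9 groups and 3 or 4 in the other groups. T and NK cell markers (1 or 2 of 6), stromal markers (1 or 2 of 6) and myeloid markers (0 of 6) were mostly under it in every group.

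Cells make cholesterol from acetyl-CoA along the mevalonate pathway, by way of squalene and lanosterol. When membrane cholesterol in the endoplasmic reticulum is low, the escort protein SCAP carries the transcription factor SREBP2 to the Golgi, where SREBP2 is cut and freed to switch on nearly every enzyme of the pathway. When sterols are plentiful, INSIG proteins hold SCAP back. The LXR receptors sense oxysterols and work in the opposite sense, switching on the exporters ABCA1 and ABCG1 and MYLIP, a ubiquitin ligase that degrades a lipoprotein receptor. Several steps of sterol synthesis after lanosterol consume oxygen.

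The start regions of HMGCS1, INSIG1, SREBF2 and INSIG2 are shown first. As reported below, HMGCS1 and INSIG1 moved together, SREBF2 passed the threshold in the main test in IM-9 only, and INSIG2 rose in every line. RefSeq (GRCh38.p14) gave a window of 250 bases before to 50 after the start for 30 of the 34 genes. Capitals in the lines for HMGCS1 (chr5:43313363-43313662, minus strand) and INSIG1 (chr7:155297628-155297927, plus strand) mark the CCAAT box, read here from the opposite strand. NF-Y, a partner of SREBP proteins, is known to bind CCAAT boxes. Capitals in the line for SREBF2 (chr22:41832855-41833154, plus strand) mark a sterol-element-like match to TCACNCCAC. Capitals in the line for INSIG2 (chr2:118088221-118088520, plus strand) mark ACGTG on the opposite strand. ACGTG and GCGTG are both forms of the core of the elements that hypoxia-inducible factors bind. Other motifs were left in lower case. The INSIG1 window also held 3 ACGTG and 3 GCGTG matches, that of SREBF2 1 CCAAT and 1 GCGTG match, and that of INSIG2 1 GCGTG match. HMGCS1 and INSIG2 each have a second listed start whose window is not shown; that of HMGCS1 (chr5:43313132-43313431) held 0 CCAAT matches, against 2 in the window shown.
HMGCS1: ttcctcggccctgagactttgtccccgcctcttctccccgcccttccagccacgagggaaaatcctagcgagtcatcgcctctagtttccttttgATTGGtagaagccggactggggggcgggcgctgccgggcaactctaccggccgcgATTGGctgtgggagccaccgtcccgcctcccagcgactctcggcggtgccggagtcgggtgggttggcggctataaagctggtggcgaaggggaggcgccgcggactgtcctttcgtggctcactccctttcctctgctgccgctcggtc
INSIG1: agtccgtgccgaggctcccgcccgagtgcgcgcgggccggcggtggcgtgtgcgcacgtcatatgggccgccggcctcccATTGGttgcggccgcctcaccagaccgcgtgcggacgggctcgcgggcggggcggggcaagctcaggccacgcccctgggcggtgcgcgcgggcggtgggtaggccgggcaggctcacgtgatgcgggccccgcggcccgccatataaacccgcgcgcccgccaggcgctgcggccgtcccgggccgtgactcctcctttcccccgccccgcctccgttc
SREBF2: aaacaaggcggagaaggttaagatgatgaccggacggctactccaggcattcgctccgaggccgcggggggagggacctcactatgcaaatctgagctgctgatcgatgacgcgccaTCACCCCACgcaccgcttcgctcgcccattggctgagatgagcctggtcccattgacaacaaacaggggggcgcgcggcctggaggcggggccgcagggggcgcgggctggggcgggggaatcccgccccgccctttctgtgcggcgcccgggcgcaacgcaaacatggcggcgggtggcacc
INSIG2: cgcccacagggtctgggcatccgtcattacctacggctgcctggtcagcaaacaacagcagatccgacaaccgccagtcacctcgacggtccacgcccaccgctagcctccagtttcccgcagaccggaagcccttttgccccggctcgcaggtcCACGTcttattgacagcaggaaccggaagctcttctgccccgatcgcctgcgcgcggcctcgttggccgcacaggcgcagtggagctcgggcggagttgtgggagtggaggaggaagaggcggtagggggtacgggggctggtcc
On either strand, CCAAT was found in 22 of 30 members' windows, against 39.7% of 27305 genes with windows. GCGTG stood in 24 members' windows, among them HMGCS1 (in the window not shown), INSIG1, SREBF2 and INSIG2, against 40.6% of genes. ACGTG stood in 11, among them INSIG1 and INSIG2, against 24.9% of genes. TCACNCCAC stood in 1, that of SREBF2, against 1.39% of genes. Matches of different motifs may overlap, and a match is a string of letters and not a measured site. The motifs were chosen with the expression results known.

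Each line's HR cells were compared with its own parental cells. The direction of the pathway depended on the line. In RPMI8226-HR cells 24 of the 29 tested genes rose and none fell, with limma at an adjusted p under 0.05, against 10.7% of all genes tested that rose and 15.3% that fell. In KMS-11-HR cells 13 fell and 1 rose, where 5.83% of all genes fell and 2.44% rose; with any 1 of its 4 arrays left out, 7 or 8 fell and 0 or 1 rose. In U266-HR cells 14 fell and 2 rose, where 8.42% of all genes fell and 9.68% rose. Fewer of the U266 falls held with any 1 of that line's arrays left out. In IM-9-HR cells 24 fell and 1 rose, where 21.3% of all genes fell and 14.4% rose. The median difference of the 29 genes was 0.57 in RPMI8226 and, in the other lines, −0.26 for KMS-11, −0.29 for U266 and −0.91 for IM-9, while over all genes tested the medians lay between −0.06 and −0.01. These differences are HR minus parental on the log2 scale throughout.

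**Figure D1:**
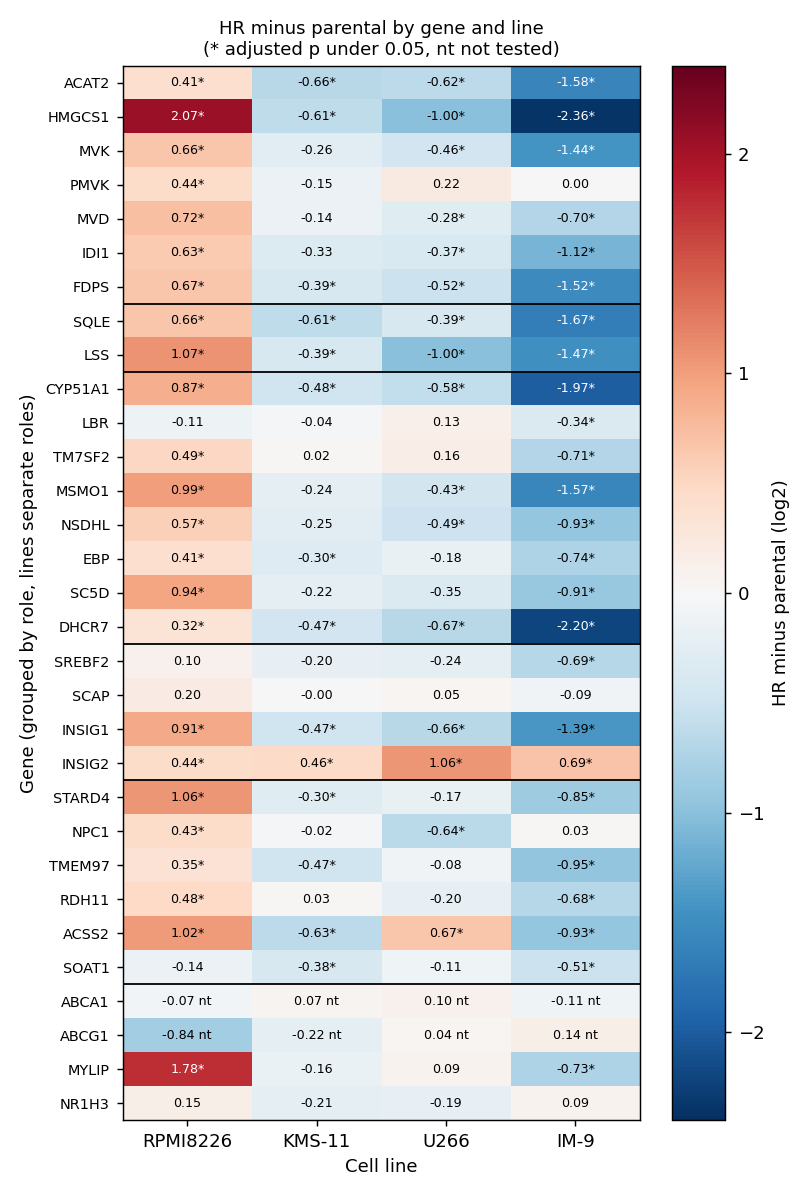
Difference between HR and parental cells (log2) for each measured gene (rows, by role) in each line (columns), with the colour and the printed value giving the difference and an asterisk marking an adjusted p under 0.05. The RPMI8226 column is positive for 27 of the 29 tested genes and the IM-9 column is negative for 25, while INSIG2 is positive in every column.

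The enzymes of the mevalonate pathway come first. ACAT2 and HMGCS1 build HMG-CoA, and MVK, PMVK and MVD turn mevalonate into the isoprene unit. IDI1 isomerises that unit, and FDPS joins such units. All 7 rose in RPMI8226-HR cells. In the other lines 3 fell in KMS-11-HR, 6 in U266-HR and 6 in IM-9-HR cells, and none rose. With any 1 of the line's arrays left out, 2 fell in KMS-11-HR (FDPS lost) and 3 in U266-HR cells (MVK, MVD and IDI1 lost). HMGCS1, the cytosolic HMG-CoA synthase, read 11.64 and 11.81 in RPMI8226-HR cells, against 9.72 and 9.59 in parental RPMI8226 cells. It read 8.33 and 8.39 in IM-9-HR cells, against 10.71 and 10.73 in parental IM-9 cells. Neither pair of groups overlapped, and the 2 lines moved in opposite directions. The level was 4.20-fold higher in RPMI8226-HR cells, a difference of 2.07 ± 0.08 (SE, limma adjusted p = 9.57e-10, n = 2 arrays each). It was 5.13-fold lower in IM-9-HR cells, a difference of −2.36 ± 0.08 (adjusted p = 6.58e-10). HMGCS1 also fell in U266-HR cells, which read 9.73 and 9.72 against 10.76 and 10.70 in parental cells, and in KMS-11-HR cells, which read 8.27 and 8.32 against 8.83 and 8.99.

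Parental U266 and parental IM-9 cells thus held the most HMGCS1 of the parental lines, whereas RPMI8226-HR cells held the most among HR cells. FDPS, the farnesyl diphosphate synthase, followed the same signs with smaller steps. It read 9.81 and 10.04 in RPMI8226-HR cells, against 9.26 and 9.26 in parental cells, and 8.06 and 8.28 in IM-9-HR cells, against 9.60 and 9.78 in parental cells. ACAT2, a cytosolic thiolase, read 9.97 and 10.35 in RPMI8226-HR cells, against 9.86 and 9.64 in parental cells. Its groups in RPMI8226 were separated by a gap smaller than the spread between the HR arrays, and the rise of 0.41 ± 0.11 (adjusted p = 0.0149) became 0.22 (adjusted p = 0.149) without RPMI8226-HR array 2. In IM-9 the fall of ACAT2 was −1.58 ± 0.11, with 9.16 and 9.27 in IM-9-HR cells against 10.73 and 10.87 in parental cells. MVK, the mevalonate kinase, fell in IM-9-HR cells to 5.81 and 6.03, under the filter level, against 7.27 and 7.45 in parental cells. PMVK, the phosphomevalonate kinase, was the mevalonate gene that did not fall in any line: its differences were 0.44 ± 0.08 in RPMI8226, where it rose, and −0.15 (KMS-11), 0.22 (U266) and 0.0025 (IM-9), none of these 3 past the threshold.

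Both measured enzymes between squalene and lanosterol moved alike by sign in all lines, up in RPMI8226-HR and down in the HR cells of the other 3. SQLE, the squalene epoxidase, is an oxygen-consuming enzyme that also limits the rate of the pathway. SQLE read 11.62 and 11.72 in RPMI8226-HR cells, against 11.04 and 10.98 in parental cells, and 9.17 and 9.18 in IM-9-HR cells, against 10.88 and 10.80 in parental cells. Its differences were 0.66, −0.61, −0.39 and −1.67 (SE 0.07) in the order RPMI8226, KMS-11, U266, IM-9. LSS, the lanosterol synthase, read 10.83 and 11.20 in RPMI8226-HR cells, against 9.95 and 9.94 in parental cells. In IM-9-HR cells LSS read 7.05 and 7.11, against 8.51 and 8.61 in parental cells, and in U266-HR cells 8.26 and 8.45, against 9.41 and 9.31. The change of LSS was 2.10-fold up in RPMI8226-HR, 2.01-fold down in U266-HR and 2.78-fold down in IM-9-HR cells. The fall of LSS in KMS-11, −0.39 ± 0.10 (adjusted p = 0.034), did not hold when any 1 of that line's arrays was left out (adjusted p 0.132 to 0.162).

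After lanosterol, 8 enzymes were tested. Of these, 7 rose in RPMI8226-HR cells, and 3 fell in KMS-11-HR, 4 in U266-HR and 8 in IM-9-HR cells. The EBP call in KMS-11 (−0.30 ± 0.07) did not hold when any 1 of that line's arrays was left out (−0.32 to −0.28). The MSMO1 call in U266 (−0.43 ± 0.10) did not hold without parental array 1 (−0.42) or HR array 1 (−0.43). CYP51A1, the oxygen-using lanosterol demethylase, read 11.16 and 11.37 in RPMI8226-HR cells, against 10.35 and 10.43 in parental cells. In IM-9-HR cells CYP51A1 read 8.817 and 8.997, against 10.90 and 10.86 in parental cells, a 3.92-fold fall (−1.97 ± 0.08, adjusted p = 2.82e-09). A second probe set of CYP51A1 gave 0.72, −0.47, −0.59 and −2.07 in that order of lines, beside 0.87, −0.48, −0.58 and −1.97 for the one used. Both probe sets gave the same order of the lines.

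DHCR7, which makes cholesterol from its last precursor in one branch of the pathway, read 7.59 and 7.67 in IM-9-HR cells, against 9.80 and 9.87 in parental cells. That fall, 4.59-fold, was the steepest after HMGCS1 among the 29 genes in IM-9. In RPMI8226-HR cells DHCR7 read 10.97 and 11.19, against 10.68 and 10.82 in parental cells, a rise of 0.32 ± 0.08 (adjusted p = 0.0093) that became 0.21 (adjusted p = 0.0897) without RPMI8226-HR array 2. MSMO1, an oxygen-using sterol demethylase, read 11.51 and 11.75 in RPMI8226-HR cells, against 10.51 and 10.77 in parental cells, and 9.21 and 9.35 in IM-9-HR cells, against 10.77 and 10.93. SC5D, an oxygen-using desaturase, rose by 0.94 ± 0.12 in RPMI8226-HR cells and fell in IM-9-HR cells (−0.91 ± 0.12). The differences of NSDHL and EBP, a sterol dehydrogenase and isomerase, were 0.57 and 0.41 in RPMI8226 and −0.93 and −0.74 in IM-9, all past the threshold.

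LBR and TM7SF2 encode related proteins that both reduce the same bond of the sterol ring. LBR, which is also a receptor of the inner nuclear membrane, was the synthesis enzyme that did not rise in RPMI8226-HR cells. It read 10.66 and 10.72 in RPMI8226-HR cells, against 10.81 and 10.80 in parental cells (−0.11 ± 0.07, adjusted p = 0.244). Its call was in IM-9-HR cells, which read 10.37 and 10.29 against 10.63 and 10.72 in parental cells (−0.34 ± 0.07, adjusted p = 0.00149). TM7SF2 read 8.20 and 8.48 in RPMI8226-HR cells, against 7.97 and 7.72 in parental cells, and 6.75 and 7.03 in IM-9-HR cells, against 7.61 and 7.60. The rise of TM7SF2 in RPMI8226 was 0.49 ± 0.11 (adjusted p = 0.00552), and 0.35 (adjusted p = 0.0635) without RPMI8226-HR array 2.

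Counted together, 16 of the 17 tested synthesis enzymes rose in RPMI8226-HR cells, 8 fell in KMS-11-HR, 12 in U266-HR and 16 in IM-9-HR cells. Fewer of these calls held in KMS-11 and in U266 whichever 1 of the line's arrays was left out, and in RPMI8226 for some of its arrays. The median differences were 0.66, −0.30, −0.43 and −1.44 in that order of lines. Paired arrays differed over the members in several groups. In parental U266 cells array 2 read above array 1 for 3 of the 29 tested genes (median −0.075), where 42.3% of all genes tested did so. In IM-9-HR cells it did so for 22 (0.064, 55.6% of all genes) and in parental IM-9 cells for 20 (0.069, 56.7%). The share of these array differences in the falls was not tested. RPMI8226-HR array 2 read above array 1 for 24 of the 29 tested genes, by a median of 0.17, where 51.6% of all genes tested did so. The share of this array difference in the rise was not tested, and without array 2 the rise of 21 of the 24 genes still passed.

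**Figure D2:**
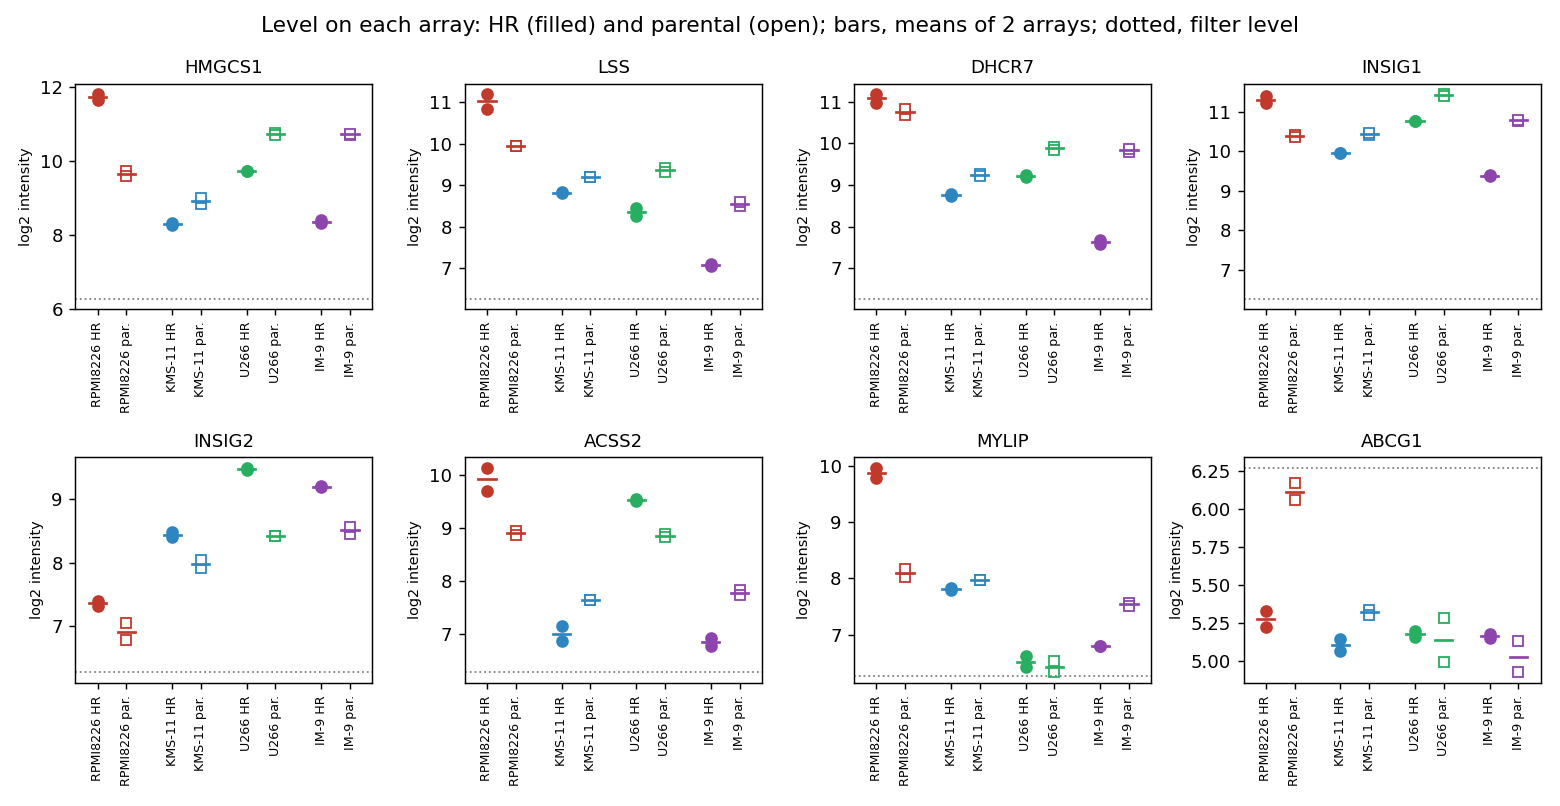
Log2 intensity on each array for 8 of the genes, HR cells as filled circles left of parental cells as open squares in each line, with bars at the means of 2 arrays and a dotted line at the filter level. HMGCS1, LSS, DHCR7 and INSIG1 are higher in RPMI8226-HR cells and lower in the HR cells of the other 3 lines, INSIG2 is higher in the HR cells of each line, and ABCG1 lies under the filter level on every array.

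The 4 regulators of the SREBP system did not move as a block. SREBF2, the gene of SREBP2, read 10.05 and 10.29 in RPMI8226-HR cells, against 10.02 and 10.13 in parental cells, and these arrays overlapped. It fell in IM-9-HR cells, which read 8.72 and 8.89 against 9.46 and 9.53 in parental cells (−0.69 ± 0.08, adjusted p = 4.42e-05). The difference was −0.20 in KMS-11 and −0.24 in U266 (limma adjusted p = 0.0646), neither past the threshold. The U266 difference did pass in several alternatives, among them renormalization (limma adjusted p = 0.0372), array weights (0.021) and the replicate block (0.0311). It did not pass with no filter, median centring or averaging of probe sets. SCAP, the escort, passed in no line, with differences between −0.09 and 0.20.

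INSIG1, itself a known SREBP target, moved with the enzymes. It read 11.21 and 11.39 in RPMI8226-HR cells, against 10.42 and 10.36 in parental cells. It read 9.37 and 9.40 in IM-9-HR cells, against 10.76 and 10.79 in parental cells. INSIG1 was 1.88-fold higher in RPMI8226-HR cells and lower in the HR cells of the other lines, by 1.39-fold in KMS-11, 1.58-fold in U266 and 2.63-fold in IM-9 (adjusted p between 1.07e-08 and 0.000847 over the 4 lines).

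INSIG2, which also retains SCAP, rose in the HR cells of all 4 lines and was the member called in the same direction in each. It read 9.50 and 9.47 in U266-HR cells, against 8.43 and 8.43 in parental cells, a 2.09-fold rise (1.06 ± 0.08, adjusted p = 1.39e-06). It read 9.22 and 9.19 in IM-9-HR cells, against 8.46 and 8.56 in parental cells. It read 7.32 and 7.40 in RPMI8226-HR cells, against 7.05 and 6.78 in parental cells. The HR arrays lay above the parental arrays in each of these lines. In KMS-11-HR cells INSIG2 read 8.40 and 8.49, against 7.91 and 8.05 in parental cells (0.46 ± 0.08, adjusted p = 0.0052). The KMS-11 call had adjusted p = 0.0645 without parental array 1 and 0.0598 without HR array 2.

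Among the genes of sterol transport, storage and related SREBP targets, 5 of 6 rose in RPMI8226-HR cells and 5 of 6 fell in IM-9-HR cells. In KMS-11-HR cells 4 fell, or 1 to 2 with any 1 of its arrays left out (STARD4 and SOAT1 lost each time, ACSS2 in 3 of 4), and in U266-HR cells 1 rose and 1 fell. STARD4, a sterol carrier, read 8.40 and 8.48 in RPMI8226-HR cells, against 7.39 and 7.38 in parental cells. It read 8.83 and 8.91 in IM-9-HR cells, against 9.68 and 9.76 in parental cells. STARD4 was the one of these genes whose IM-9 level stayed the highest of the 4 lines in both states, with RDH11, a retinol dehydrogenase that SREBP proteins are known to induce. RDH11 rose by 0.48 ± 0.08 in RPMI8226-HR cells and fell in IM-9-HR cells (−0.68 ± 0.08). TMEM97, a sterol-binding membrane protein, differed by 0.35, −0.47, −0.08 and −0.95 in the order RPMI8226, KMS-11, U266, IM-9, and the U266 value did not pass.

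ACSS2, which makes acetyl-CoA from acetate, split the lines differently from the enzymes. ACSS2 read 9.70 and 10.14 in RPMI8226-HR cells, against 8.94 and 8.86 in parental cells, and 9.55 and 9.51 in U266-HR cells, against 8.88 and 8.83 in parental cells. It read 6.86 and 7.15 in KMS-11-HR cells, against 7.63 and 7.65 in parental cells, and 6.93 and 6.78 in IM-9-HR cells, against 7.83 and 7.73. It was thus higher in HR cells of the 2 lines that already had more of it, by 2.03-fold in RPMI8226 and 1.60-fold in U266. It was lower by 1.55-fold in KMS-11 and 1.90-fold in IM-9. The KMS-11 call was lost without any of 3 of its 4 arrays (adjusted p 0.0513 to 0.0877).

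NPC1, which moves cholesterol out of lysosomes, rose in RPMI8226-HR cells (9.40 and 9.39, against 8.93 and 8.99 in parental cells) and fell in U266-HR cells (9.47 and 9.50, against 10.18 and 10.07). Its arrays overlapped between HR and parental cells in KMS-11 and in IM-9. SOAT1, which esterifies cholesterol for storage, rose in no line. It fell in KMS-11-HR cells (−0.38 ± 0.08, adjusted p = 0.0113, but 0.0639 to 0.0808 with any 1 of that line's arrays left out) and IM-9-HR cells (−0.51 ± 0.08, adjusted p = 0.000305). In RPMI8226 SOAT1 read 8.91 and 8.66 in HR cells, against 8.90 and 8.95 in parental cells, and without HR array 1 it was lower in HR cells (−0.27, adjusted p = 0.0278).

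**Figure D3:**
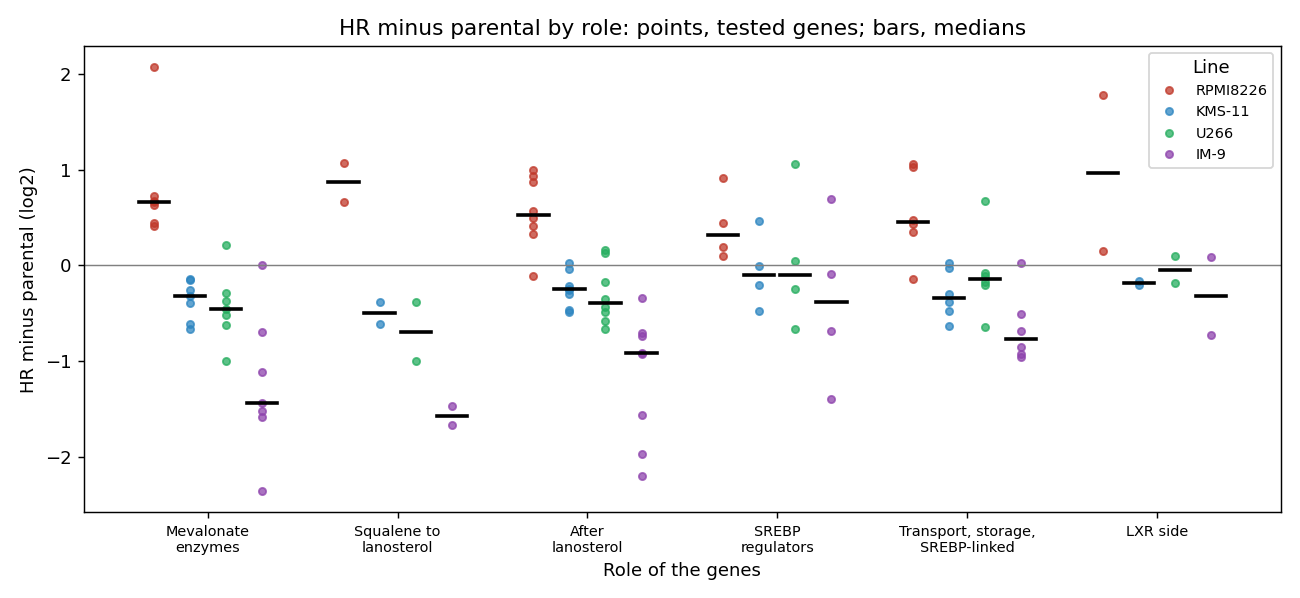
Difference between HR and parental cells (log2) of every tested gene, as points, by role along the horizontal axis and by line in colour, with bars at the medians. The mevalonate medians are 0.66 for RPMI8226, −0.33 for KMS-11, −0.46 for U266 and −1.44 for IM-9, and the regulators scatter on both sides of 0 in every line but RPMI8226.

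On the LXR side only MYLIP and NR1H3, the gene of LXR alpha, were bright enough to test. MYLIP read 9.78 and 9.96 in RPMI8226-HR cells, against 8.02 and 8.16 in parental cells, a 3.43-fold rise (1.78 ± 0.09, adjusted p = 1.81e-08). It fell in IM-9-HR cells, which read 6.81 and 6.80 against 7.56 and 7.52 in parental cells. In KMS-11 the difference was −0.16 and in U266 0.09, with overlapping arrays in U266 close to the filter level. The RPMI8226-HR rise of MYLIP was the next after HMGCS1 among the 29 genes.

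ABCG1 had the opposite sign to MYLIP in RPMI8226: it read 5.33 and 5.22 in HR cells, against 6.05 and 6.17 in parental cells, all under the filter level. With no filter this difference of −0.84 passed the threshold. In the other lines ABCG1 lay between 4.92 and 5.34 on every array. ABCA1 lay between 4.51 and 5.88 on all 16 arrays, highest in both KMS-11 groups, and its HR minus parental differences lay between −0.11 and 0.10. NR1H3 passed in no line, with levels near the filter (6.14 to 7.06).

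The differences between lines were tested directly. An F test across the 4 lines found that the HR effect differed for 28 of the 29 genes, where 45.4% of all genes tested passed; SCAP was the exception (adjusted p = 0.142). The RPMI8226 effect was set against the mean effect of the other 3 lines. This contrast was chosen with the opposite direction in RPMI8226 already known from earlier results of these data. It gave 24 genes higher and 1, INSIG2, lower, where 12.6% of all genes tested were higher and 14.2% lower. The median of this contrast was 1.23 over the 29 genes and 0.00 over all genes tested. HMGCS1 stood at 3.40 ± 0.09, MYLIP at 2.05 ± 0.10, LSS at 2.03 ± 0.12 and CYP51A1 at 1.89 ± 0.09. INSIG2 stood at −0.29 ± 0.10 (adjusted p = 0.0416), a call that was lost under several alternatives.

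The IM-9 effect was also set against the mean effect of KMS-11 and U266, a contrast added after the values were seen. Of the 29 genes, 23 were lower and 2 higher, where 15.6% of all genes tested were lower and 12% higher, with a median of −0.68 against −0.05 over all genes. DHCR7 (−1.63 ± 0.10) and HMGCS1 (−1.55 ± 0.09) were the lowest. The higher genes were NPC1 (0.36 ± 0.09, adjusted p = 0.00953) and NR1H3 (0.29 ± 0.10, adjusted p = 0.0442). Both of these calls were lost when single arrays were left out. PMVK, SCAP, INSIG2 and SOAT1 did not pass, at −0.03, −0.11, −0.07 and −0.26.

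**Figure D4:**
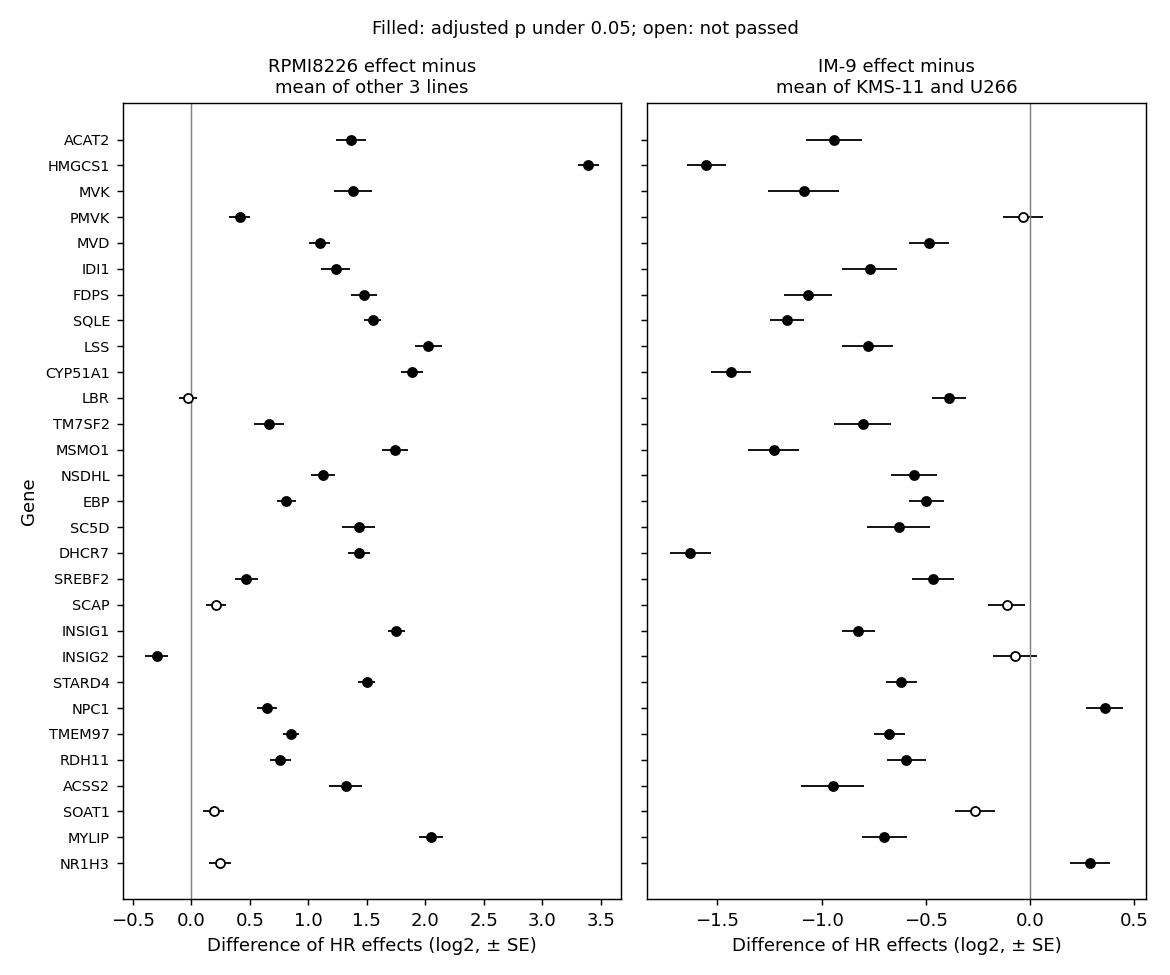
Difference of HR effects (log2, with SE) for each tested gene, on the left the RPMI8226 effect minus the mean of the other 3 lines and on the right the IM-9 effect minus the mean of KMS-11 and U266, with filled points for an adjusted p under 0.05. Nearly all points lie right of 0 on the left and left of 0 on the right, and HMGCS1 is the farthest out on the left at 3.40.

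Gene by gene, 8 members both rose in RPMI8226-HR and fell in the HR cells of all 3 other lines: ACAT2, HMGCS1, FDPS, SQLE, LSS, CYP51A1, DHCR7 and INSIG1. With single arrays left out the count was 6 to 8, and 4 of the genes, HMGCS1, SQLE, CYP51A1 and INSIG1, kept all their calls whichever array was left out. Pairing RPMI8226 with each other line, the number that rose in it and fell in the other was 12 for KMS-11, 14 for U266 and 21 for IM-9. Joint shares over all genes tested were not counted. They cannot exceed the share fallen in KMS-11 (5.83%) or U266 (8.42%), or, for IM-9, the share risen in RPMI8226 (10.7%). Of the 29 genes, 2 passed in no line, SCAP and NR1H3, and the share of all genes that did so was not counted. Taking the line as the unit, with 4 lines, no gene passed in either direction, as for 0% of all genes tested. At an unadjusted limma p under 0.05, 1 of the 29 genes was higher across lines and 1 lower. Of the 12639 genes tested, 288 were higher and 505 lower, so the counts of members lay near the share of all genes. The higher member was INSIG2 (0.67 ± 0.12, limma adjusted p = 0.57), positive in 4 of 4 lines. The lower was SOAT1 (−0.28 ± 0.09, adjusted p = 0.764), negative in 4 of 4 lines. In the fit of single arrays with the replicate number as a block, INSIG2 passed (limma adjusted p = 0.0102), as 1 of 176 genes called. That fit counted the 2 arrays of a group as separate, so the line was not its unit.

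The lines also differed from each other in the levels themselves. All 29 genes differed between the 4 parental groups and all 29 between the 4 HR groups by F test, where 94.3% and 94.2% of all genes tested did. The range over lines, the highest line mean minus the lowest, had a median of 1.54 among HR groups and 1.04 among parental groups for the 29 genes, beside 0.92 and 0.92 over all genes tested. LSS spanned 3.93 among HR groups and 1.39 among parental groups, DHCR7 3.44 and 1.52, HMGCS1 3.43 and 1.82, and CYP51A1 2.36 and 0.66. The parental range was the wider in 8 of the 29 genes, among them STARD4, RDH11 and NPC1, against 51.3% of all genes tested. Among HR groups RPMI8226 was highest for 20 genes and IM-9 lowest for 14. Among parental groups RPMI8226 was highest for 13 genes and lowest for 11, and IM-9 lowest for 3. The highest and lowest lines were not counted over all genes tested.

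**Figure D5:**
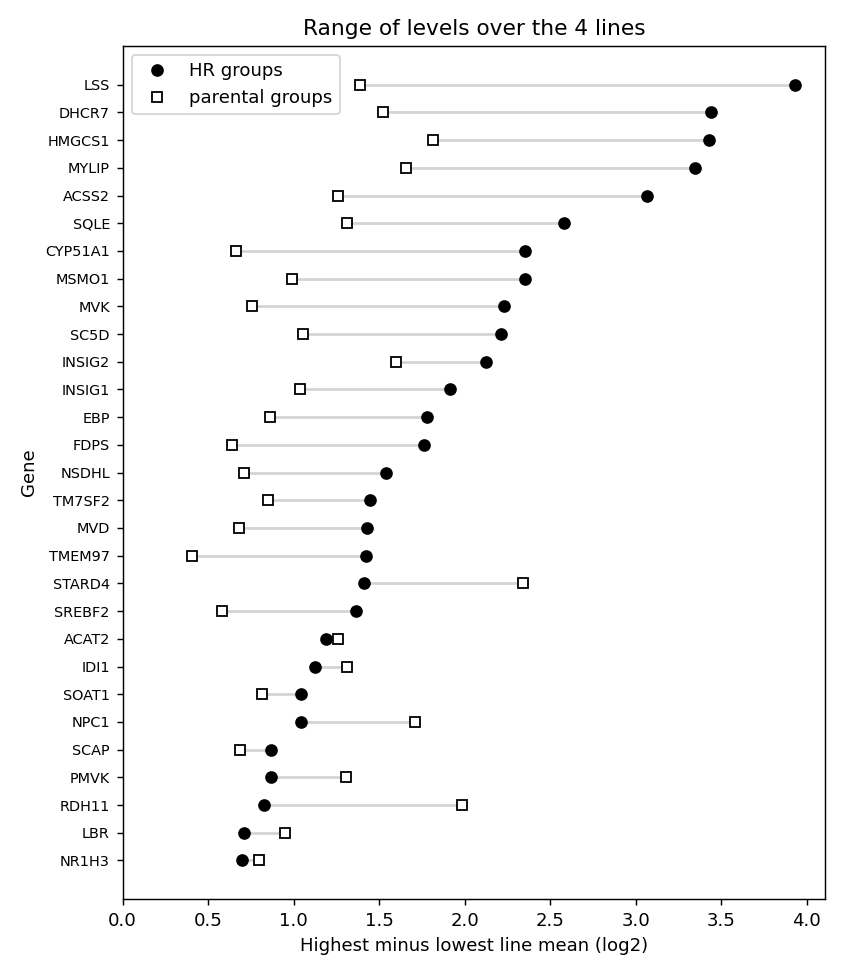
Range of levels over the 4 lines (highest minus lowest line mean, log2) for each tested gene, among HR groups as filled circles and among parental groups as open squares. The HR range is the wider for 21 of 29 genes and reaches 3.93 for LSS, against 1.39 in parental groups.

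Other genes around the pathway were counted from 3 lists. SREBF1, the gene of the factor SREBP1, stood in both the fatty acid list and the sterol sensing list. It fell in IM-9-HR cells (−0.83 to −0.66 with 1 of that line's arrays left out) and is counted in both. Of 10 tested genes of fatty acid synthesis, which the sister factor SREBP1 is known to drive, 7 rose in RPMI8226-HR cells (10.7% of all genes tested), and 3 fell in KMS-11-HR (5.83%), 7 in U266-HR (8.42%) and 8 in IM-9-HR cells (21.3%). With 1 of the line's arrays left out, the RPMI8226 count was 4 to 7 and the U266 count 3 to 5. FASN, the fatty acid synthase, differed by 0.44, −0.52, −0.57 and −1.34 (SE 0.08) in the order RPMI8226, KMS-11, U266, IM-9. ME1, an NADPH-making enzyme, fell in IM-9-HR (−2.30 ± 0.08) and U266-HR cells (−0.46 ± 0.08). ACACA, the acetyl-CoA carboxylase, fell in IM-9-HR (−1.23 ± 0.05), KMS-11-HR (−0.51 ± 0.05) and U266-HR cells (−0.44 ± 0.05).

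The branches that leave the mevalonate pathway for ubiquinone, dolichol and protein prenylation were tested with 12 genes of 13 listed. Of these, 1 rose and 4 fell in RPMI8226-HR, 2 fell in KMS-11-HR, 4 fell in U266-HR, and 2 rose and 3 fell in IM-9-HR cells. Over all genes tested, 10.7% rose and 15.3% fell in RPMI8226-HR, and 14.4% rose and 21.3% fell in IM-9-HR cells, so the IM-9 counts lay near the share of all genes. The shares of all genes that fell were 5.83% in KMS-11-HR and 8.42% in U266-HR cells. With 1 of the line's arrays left out, the falls numbered 1 to 2 in RPMI8226-HR, 1 in KMS-11-HR and 2 to 3 in U266-HR cells, and the rises 0 to 1 in RPMI8226-HR and 0 to 2 in IM-9-HR cells. DHDDS, for dolichol, rose in IM-9-HR cells (0.21 ± 0.07) and fell in U266-HR cells (−0.34 ± 0.07) and in RPMI8226-HR cells (−0.28 ± 0.07), the RPMI8226 call lost without parental array 1 or HR array 2 (limma adjusted p 0.0591 and 0.053) and the IM-9 call without 3 of 4 arrays. PDSS1, for ubiquinone, fell in KMS-11-HR (−0.57 ± 0.08) and IM-9-HR cells (−0.46 ± 0.08).

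Of 19 tested genes of sterol sensing, uptake and turnover (of 26 listed), 2 rose and 3 fell in each of RPMI8226-HR, KMS-11-HR and U266-HR cells, and 2 rose and 9 fell in IM-9-HR cells. In RPMI8226 these counts lay near the shares of all genes tested, 10.7% risen and 15.3% fallen, and the shares fallen in KMS-11, U266 and IM-9 were 5.83%, 8.42% and 21.3%. The shares risen in those lines were 2.44%, 9.68% and 14.4%, so the rises in U266 and IM-9 also lay near the share of all genes. With 1 of the line's arrays left out, 0 to 1 fell in KMS-11-HR, 1 to 3 in U266-HR and 6 to 8 in IM-9-HR cells, and the rises were 1 to 2 in KMS-11-HR and in IM-9-HR cells. VLDLR, a receptor for triglyceride-rich lipoproteins, rose in 3 lines. It read 5.96 and 5.84 in RPMI8226-HR cells, against 5.01 and 4.96 in parental cells, and 6.69 and 6.73 in KMS-11-HR cells, against 5.70 and 5.75. It read 9.37 and 9.46 in U266-HR cells, against 8.60 and 8.62 in parental cells, and 6.45 and 6.41 in IM-9-HR cells, against 6.28 and 6.52. The differences were 0.91, 0.98 and 0.81 (SE 0.08) in RPMI8226, KMS-11 and U266, and 0.03 in IM-9 (limma adjusted p = 0.764), where the arrays overlapped. The RPMI8226 levels lay under the filter level in both states. In IM-9-HR cells LIPA, the lysosomal lipase that frees cholesterol from its esters, fell (−0.93 ± 0.09), and so did MMAB, a cobalamin enzyme (−1.004 ± 0.075). SCARB1, a lipoprotein receptor, rose in U266-HR cells (0.59 ± 0.08) but was among the genes that fell in IM-9-HR cells. Its IM-9 difference was −0.32 to −0.27 with 1 of that line's arrays left out.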

How the data were processed

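Total RNA was hybridised to Affymetrix arrays. The deposited values are log2 intensities per probe set, made with Affymetrix Expression Console 1.3.0 per the submitters' processing notes; background correction and normalization are not given in the sources used here. The design text names the Gene 2.0 ST array, but the probe sets matched the table of the 1.0 ST platform. Of 33297 probe sets, 19460 had 1 gene symbol, 1754 several and 12083 none; symbols were updated to RefSeq (GRCh38.p14). Per gene the single-symbol probe set with the highest mean was used (769 genes had several).

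The 16 arrays were grouped by their labels. limma 3.58.1 (R 4.3.3) was fitted to all arrays as 8 groups, tested on simulated data, with 2-sided contrasts and Benjamini-Hochberg adjustment over the 12639 genes tested (threshold 0.05); the values were not normalized again. Across lines, the 8 group means were fitted with line as a block. Genes named are all listed members, by role, and up to 3 per line and list of the other genes. Members and lists were chosen with earlier results of these data known. Alternatives were the filter, renormalization, centring, averaging of probe sets, array weights, the variance prior, a replicate block, single lines and each array left out. Figures used matplotlib 3.10.9.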

Additional observations from a re-analysis of the deposited data

Results flagged for a closer look

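The effect of HR on the log2 level differed between lines for nearly all tested genes, by a test of the difference itself in limma (adjusted p under 0.05). The RPMI8226 effect minus the mean effect of the other 3 lines was a contrast chosen with earlier results of these data known. In it the differences of the mevalonate enzymes were ACAT2 1.36, HMGCS1 3.40, MVK 1.38, PMVK 0.41, MVD 1.10, IDI1 1.23 and FDPS 1.48. The later enzymes differed by SQLE 1.55, LSS 2.03, CYP51A1 1.89, TM7SF2 0.67, MSMO1 1.74, NSDHL 1.13, EBP 0.81, SC5D 1.43 and DHCR7 1.43. Among the regulators the differences were SREBF2 0.47, INSIG1 1.75 and INSIG2 −0.29. Among transport genes and MYLIP they were STARD4 1.5, NPC1 0.65, TMEM97 0.85, RDH11 0.76, ACSS2 1.32 and MYLIP 2.05.

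For the IM-9 effect minus the mean effect of KMS-11 and U266, a contrast chosen after the data were seen, the mevalonate enzymes differed by ACAT2 −0.94, HMGCS1 −1.55, MVK −1.09, MVD −0.48, IDI1 −0.77 and FDPS −1.07. The later enzymes differed by SQLE −1.17, LSS −0.78, CYP51A1 −1.44, LBR −0.39, TM7SF2 −0.80, MSMO1 −1.23, NSDHL −0.56, EBP −0.50, SC5D −0.63 and DHCR7 −1.63. SREBF2 and INSIG1 differed by −0.47 and −0.82. Transport genes, MYLIP and NR1H3 differed by STARD4 −0.62, NPC1 0.36, TMEM97 −0.68, RDH11 −0.59, ACSS2 −0.95, MYLIP −0.70 and NR1H3 0.29. For LBR, SOAT1 and NR1H3, the RPMI8226 contrast did not pass, but the F test over the 4 lines did, with limma adjusted p of 0.0081, 0.0257 and 0.0336.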

How the results depend on the processing

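Every alternative kept the direction of each tested gene's difference where it was called. Some alternatives also called differences that the main test did not. Among these were SREBF2 and SC5D, lower in U266-HR cells, and IDI1, lower in KMS-11-HR cells. All 25 calls in IM-9 held in every alternative, 21 of 24 in RPMI8226, 12 of 16 in U266 and 7 of 14 in KMS-11. With no filter 1 member (ABCG1) was lower in RPMI8226-HR. Leaving out single arrays gave 0 to 1 members lower in RPMI8226-HR, 0 to 1 higher and 7 to 14 lower in KMS-11-HR, 0 to 1 lower in the RPMI8226 contrast and 0 to 2 higher in the IM-9 contrast. The lower member of the RPMI8226 contrast, INSIG2, was lost with array weights (0), the replicate block (0) and no filter (adjusted p = 0.068), and 1 of the higher members of the IM-9 contrast was left with no filter, the stricter filter, median centring, array weights and the intensity trend. The causes were not tested.

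The labels give same-numbered arrays of a line no more than a shared number, and whether they shared anything else is not known. Their deviations correlated by 0.21, 0.07, −0.05 and 0.11 in the order RPMI8226, KMS-11, U266, IM-9. With the replicate block, fitted across lines to single arrays and not to the means of groups, 1 member (INSIG2) passed.

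Over all genes, KMS-11 calls numbered 1045, against 2083 with array weights and 348 to 401 with 1 of its arrays left out. U266 calls numbered 2287, against 1425 to 1476 without 1 of 3 arrays, and IM-9 calls 4506, against 2843 from that line's arrays alone. Across lines the 0 calls became 6 with array weights and 1 without RPMI8226. They became 176 with the replicate block, a fit to single arrays in which the line was not the unit. Array number limits precision, and genes under the filter level (ABCA1, ABCG1) had no main test.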
